A study of Mus musculus with 67 samples.

Results

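The normal mouse forelimb bud was followed from just after it forms, before Hedgehog (HH) signaling starts, to a day later, when HH signaling is under way on its posterior side. The data were 7 of the 14 RNA-seq libraries of the series, which holds 67 samples in all: the 3 wild-type (WT) libraries of whole forelimb buds at E9.25 (E for embryonic day, 21 to 23 somites) and the 4 WT libraries of the anterior part of the forelimb bud at E10.5 (32 to 35 somites), chosen by these 2 labels alone. All came from Swiss Webster mice, an outbred stock, and the labels name no mutant allele in them. By the labels, each E9.25 library pooled about 4 pairs of buds and each E10.5 library 2 pairs of anterior parts, whereas the study's methods give about 4 pairs for both stages. The study asked when GLI repressors, which hold HH target genes off in cells without HH, begin to act, and its other libraries map GLI3 binding, chromatin and RNA in WT and mutant buds. Stage and region change together here, since the early buds were taken whole and the later ones without their posterior part, so a difference due to age and a difference due to the missing tissue cannot be told apart. In bulk RNA, fewer cells of a type and less RNA per cell cannot be told apart either.

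A limb bud grows out of the lateral plate mesoderm of the flank as a core of mesenchyme under a sheet of ectoderm. FGF10 from the mesenchyme and FGF8 from the apical ectodermal ridge keep it growing, and SHH from a small posterior region patterns it from anterior to posterior. Hox genes of the 5′ ends of the HoxA and HoxD clusters are switched on in turn as the bud lengthens, while retinoic acid acts at the trunk end. Muscle precursors, vessels, blood cells and macrophages enter from outside the bud, and the mesenchyme later condenses into cartilage and tendon.

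Values are given as TPM, a relative RNA level per kilobase of transcript scaled to the same total in every library. The 7 libraries held 38.1 to 53.5 M reads, so that 1 TPM stood for 20.7 to 29.2 reads per kilobase, and 13276 to 15816 genes reached 1 TPM. Of 46983 genes listed, 15444 reached 1 TPM in at least 3 of the 7 libraries and were tested. Pearson's r of log2(TPM + 1) across genes was 0.973 to 0.984 within E9.25, 0.984 to 0.992 within E10.5 and 0.927 to 0.960 between the stages. *Tbx5*, the T-box factor that marks forelimb mesoderm, was at 44.6, 24.1 and 26.0 TPM at E9.25 and 55.5, 47.1, 64.8 and 61.5 TPM at E10.5, and *Prrx1*, a homeobox gene of limb mesenchyme, at 125, 70.5 and 104 TPM at E9.25 and 255, 223, 263 and 302 TPM at E10.5. Both defining genes were present in every library. *Shh*, made in the posterior bud, was at 0.0603, 0 and 0 TPM at E9.25 and listed at 0 in all 4 E10.5 libraries. E10.5 replicate 2 nevertheless carried more RNA of several posterior genes than the other 3, and its values are given with each gene.

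One library stood apart. In E9.25 replicate 2, genes that span a long stretch of genome were low: the median deviation from the mean over the 7 libraries, on the log2 scale, was -0.12 for genes under 10 kb, -0.28 for 10 to 30 kb, -0.53 for 30 to 100 kb and -0.72 for 100 kb or more. The other E9.25 libraries stayed between -0.01 and -0.21 in the same classes. The stage difference itself grew with gene span, from a median log2 fold change of 0.17 in the shortest class to 0.63 in the longest, and from 0.14 to 0.41 without replicate 2. Calls were also made with the trend over gene span removed from each library (span trend removed). Whether span itself causes any single difference was not tested. Results that moved with replicate 2 are given with and without it.

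Of the 15444 tested genes, 5885 were higher and 1635 were lower at E10.5 at an adjusted p under 0.05 (limma on log2(TPM + 1), Benjamini-Hochberg adjustment), which is 48.7% of the genes in all, 38.1% higher and 10.6% lower. The median log2 fold change (E10.5 over E9.25) was 0.34. This imbalance depended on how the libraries were scaled. With median-of-ratios size factors 3659 genes were higher and 2893 lower (42.4% in all), with a median of 0.10, and with quantile normalization 2668 were higher and 3050 lower (37%). Genes with the same call under all 3 scalings numbered 2211 higher and 1470 lower, 23.8% of the tested genes, or 14.3% and 9.52% in the 2 directions. A gene under 1 TPM in every library of 1 stage was tested only if it was high in the other, so counts over tested members of a list favor change where such genes are frequent. The filter also fixed the direction of such a gene, so its adjusted p-value does not bear on direction. In what follows "rose" and "fell" mean a call with TPM as deposited, and "held" means the same call under all 3 scalings. Counts over the members of a list are to be read beside the 38.1% higher and 10.6% lower of all tested genes. Without E9.25 replicate 2 there were 5157 higher and 1555 lower genes (43.5%, of which 33.4% higher and 10.1% lower), and 2211 of the 2211 held increases and 1272 of the 1470 held decreases (8.24% of tested genes) kept their call. With the span trend removed, 1943 of the 2211 held increases and 1470 of the 1470 held decreases kept theirs. The 3 and 4 libraries did not overlap for 41.5% of the genes on the higher side and 12% on the lower side.

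**Figure D1:**
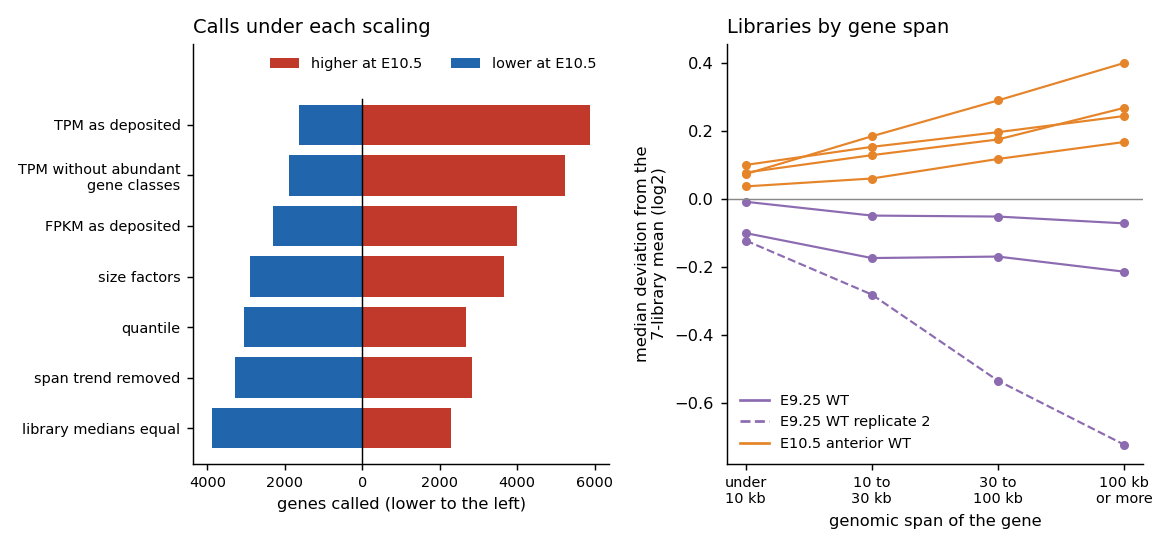
Calls by scaling and the link to gene span. The first panel plots the number of genes called higher and lower at E10.5 under each scaling, and the second the median deviation of each library by class of gene span on the log2 scale. Calls run from 5885 higher and 1635 lower with TPM as deposited to 2282 and 3877 with library medians set equal, and E9.25 replicate 2 (dashed) reaches -0.72 in the longest class.

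The 15 largest held increases ranged over regulators of transcription and other genes. *Mab21l1*, a member of the MAB21 family, was at 0.286, 0.494 and 0.792 TPM at E9.25 and 28.7, 28.8, 29.5 and 36.7 TPM at E10.5 (log2 fold change 4.39, standard error 0.17, adjusted p = 1.79e-05). *Tbx15*, a T-box factor needed for the scapula, was at 3.24, 5.72 and 6.38 TPM at E9.25 and 97.6, 91.3, 108 and 115 TPM at E10.5 (log2 fold change 4.12, standard error 0.19, adjusted p = 2e-05). *Shox2*, a homeobox gene needed for the proximal limb skeleton, was at 5.62, 6.19 and 9.46 TPM at E9.25 and 99.2, 118, 113 and 129 TPM at E10.5 (log2 fold change 3.86, standard error 0.17, adjusted p = 1.97e-05). In each of the 3 genes every E10.5 library lay far above every E9.25 one. *Pax1*, a paired-box gene of the shoulder girdle, was listed at 0 in all 3 E9.25 libraries and 16.2, 8.27, 30.7 and 34.6 TPM at E10.5. Other genes among these 15 were *Gjb2*, which encodes the gap junction protein connexin 26 (log2 fold change 3.91), *Osr2*, a zinc finger gene of developing joints (3.71), *Prdm16*, a zinc finger regulator (3.68), *Bcl11a*, another zinc finger gene (3.61), *Chd3*, a chromatin remodeler of the NuRD complex (3.51), *Synpo*, an actin-associated protein (3.36), and *Nr1h5*, a nuclear receptor (3.80). *Nr1h5* varied most within E10.5, with 0.0520, 0 and 0.121 TPM at E9.25 and 8.21, 10.1, 12.7 and 32.7 TPM at E10.5.

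The largest held decreases joined genes of the trunk and of other lineages. *Hopx*, an atypical homeodomain gene, was at 26.7, 38.6 and 36.3 TPM at E9.25 and 1.04, 1.36, 0.392 and 0.605 TPM at E10.5 (log2 fold change -4.25, standard error 0.22, adjusted p = 2.03e-05). *Gal*, which encodes the neuropeptide galanin, was at 31, 17 and 13.3 TPM at E9.25 and 0.0830, 0.270, 0.335 and 0.347 TPM at E10.5 (log2 fold change -4.01, standard error 0.26, adjusted p = 4.21e-05). *Cdx1*, a caudal-type homeobox gene of the posterior trunk, was at 39.7, 39.4 and 25.5 TPM at E9.25 and 2.36, 1.86, 1.48 and 1.30 TPM at E10.5 (log2 fold change -3.69, standard error 0.21, adjusted p = 2.71e-05). The groups lay far apart for all 3. *Etv2*, the ETS factor that starts the blood and vessel lineages, was at 11.7, 19.5 and 11.2 TPM at E9.25 and 0.411, 0.464, 0 and 0.391 TPM at E10.5 (log2 fold change -3.50, standard error 0.23, adjusted p = 4.29e-05). *Tnni1*, the slow skeletal troponin I, had a log2 fold change of -3.72 and *Krt23*, a keratin, of -3.09. *Car4*, a membrane carbonic anhydrase, was at 11.2, 7.46 and 5.41 TPM at E9.25 and listed at 0 in all 4 E10.5 libraries. *Wnt2*, a Wnt ligand, also fell (-2.88).

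The 39 Hox genes split by position in their clusters, which run from group 1 at the 3′ end to group 13 at the 5′ end. Of the 23 tested genes of groups 1 to 8, 15 fell and all 15 held, while 2 rose and neither held, with a median log2 fold change of -0.97. Of the 11 tested genes of groups 9 to 13, 7 rose and 2 fell, all held, with a median of 1.25. The summed level of groups 1 to 8 was 630.5, 556 and 506 TPM at E9.25 and 343, 258, 319 and 309 TPM at E10.5, and that of groups 9 to 13 was 209.9, 259 and 271 TPM at E9.25 and 497, 521, 514 and 469.9 TPM at E10.5. The 2 sums crossed between the stages.

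Among the 5′ genes, *Hoxa11* was at 3.55, 6.94 and 8.83 TPM at E9.25 and 65.6, 66.5, 73.9 and 62.6 TPM at E10.5 (log2 fold change 3.26, standard error 0.23, adjusted p = 5.62e-05). *Hoxa10* was at 6.35, 13.7 and 17.1 TPM at E9.25 and 119, 110.5, 126 and 117 TPM at E10.5 (log2 fold change 3.25, standard error 0.26, adjusted p = 8.85e-05) and *Hoxd11* at 1.81, 2.81 and 2.20 TPM at E9.25 and 33.8, 64.2, 47.5 and 41.0 TPM at E10.5 (log2 fold change 3.84, standard error 0.22, adjusted p = 2.71e-05). No library of one stage reached the other in these 3 genes, which pattern the stylopod and zeugopod, the upper and middle limb segments. *Hoxd10* rose from a higher start (19.9, 39.7 and 48.2 TPM at E9.25 and 82.3, 84.5, 74.3 and 71.9 TPM at E10.5). *Hoxa13*, a gene of the future hand plate, was at 0, 0 and 0.0626 TPM at E9.25 and 0.828, 2.49, 5.73 and 4.09 TPM at E10.5 (log2 fold change 1.91, standard error 0.39, adjusted p = 0.0051). *Hoxd13*, which in later buds is strongest posteriorly and distally, was at 2.37, 2.72 and 2.54 TPM at E9.25 and 3.57, 13.5, 5.65 and 2.53 TPM at E10.5 and did not pass (log2 fold change 0.83, adjusted p = 0.126). *Hoxd12* was under the filter, at 0.0955, 0 and 0 TPM at E9.25 and 0.520, 4.62, 0.947 and 0.274 TPM at E10.5. In *Hoxd11*, *Hoxd12* and *Hoxd13* E10.5 replicate 2 was the highest library. E9.25 replicate 1 was the lowest E9.25 library for *Hoxa10*, *Hoxa11* and *Hoxd10*. *Hoxd9* went the other way, at 108, 143 and 128 TPM at E9.25 and 100.4, 78.7, 90.7 and 77.0 TPM at E10.5 (log2 fold change -0.54, standard error 0.13, adjusted p = 0.0104).

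*Hoxa11os*, the RNA transcribed from the opposite strand of *Hoxa11*, was at 1.5, 1.77 and 5.55 TPM at E9.25 and 56.2, 57.5, 65.1 and 62.6 TPM at E10.5 (log2 fold change 4.10, standard error 0.30, adjusted p = 5.95e-05). Whether reads were counted by strand is not given, so reads of the 2 overlapping transcripts cannot be told apart.

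The HoxB cluster fell as a block. Of its 9 tested genes 8 fell and all 8 held, and the summed HoxB level was 281, 218 and 198 TPM at E9.25 and 93.5, 61.5, 88.9 and 76.5 TPM at E10.5. *Hoxb9* was at 32.7, 13.8 and 21.5 TPM at E9.25 and 0.685, 0.530, 0.277 and 0.240 TPM at E10.5 (log2 fold change -3.98, standard error 0.27, adjusted p = 4.79e-05), and *Hoxb1* at 19.1, 12.8 and 7.23 TPM at E9.25 and 1.57, 0.444, 0.581 and 0.374 TPM at E10.5 (log2 fold change -2.97, standard error 0.33, adjusted p = 0.000375). *Hoxb3* was the member that did not pass, with mean levels of 26.5 and 25.6 TPM. *Hoxd1* of the HoxD cluster fell with them, from a mean of 9.10 to 0.516 TPM. The HoxA sum rose from 185 to 195 TPM at E9.25 to 352 to 390.4 TPM at E10.5, while the HoxD sum, 243 to 293 TPM before and 245 to 305 TPM after, overlapped. *Hoxa3* (0.72) and *Hoxa6* (0.72) were the 2 increases of groups 1 to 8 and did not hold, and without E9.25 replicate 2 that of *Hoxa6* was 0.40 and lost its call (adjusted p = 0.0502).

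**Figure D2:**
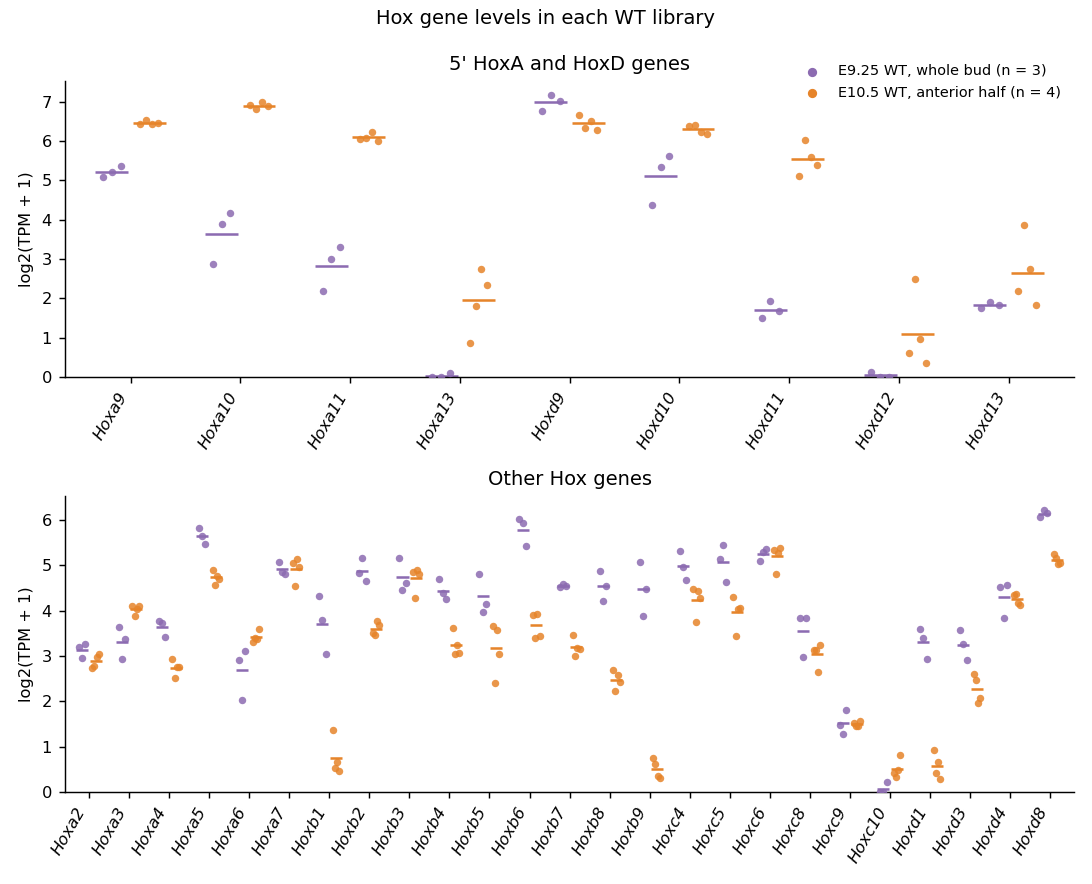
Hox gene levels at the 2 stages. Each point is a library's log2(TPM + 1) and each bar a group mean, with the 5′ HoxA and HoxD genes in the upper panel, other Hox genes in the lower and the stages in different colors. Group 1 to 8 genes mostly sit lower at E10.5, while *Hoxa10*, *Hoxa11* and *Hoxd11* sit higher with no overlap.

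Genes of the flank, the tissue the bud grows from, were lower at E10.5 beside the HoxB block. Of 13 markers of flank and lateral plate mesoderm, 10 had a lower mean at E10.5, 2 a higher and 1 the same. Of the 8 that passed the filter, 5 were under 1 TPM in every E10.5 library and passed through E9.25 alone, which fixed their direction, and of the other 3 *Gata6* and *Hand1* fell and *Tbx18* rose. Without *Tbx18*, the marker that rose, their summed level was 29.5 to 75.3 TPM at E9.25 and 1.77 to 4.05 TPM at E10.5. *Hand1*, a bHLH gene of lateral plate, was at 24.6, 5.04 and 7.35 TPM at E9.25 and 0.832, 0.305, 1.21 and 1.04 TPM at E10.5 (log2 fold change -2.59, standard error 0.45, adjusted p = 0.00262). *Gata5*, a GATA factor of lateral plate mesoderm, was at 10.8, 7.13 and 5.11 TPM at E9.25 and 0.428, 0.361, 0.700 and 0.464 TPM at E10.5. *Wt1*, a gene of the coelomic lining and gonad ridge, was at 3.19, 2.17 and 1.33 TPM at E9.25 and listed at 0 in all 4 E10.5 libraries, and *Upk3b*, a mesothelial gene, was at 6.51, 4.74 and 3.60 TPM at E9.25 and 0.102, 0, 0.0338 and 0 TPM at E10.5. *Wt1* and *Upk3b* left almost no signal in the E10.5 libraries, while *Hand1* and *Gata5* were low but present in each. E9.25 replicate 1 had the most flank RNA and also the highest HoxB sum, 281 TPM. The part that flank cells taken with the early buds play in the fall of any trunk gene was not tested. *Tbx18*, which flank and proximal limb mesenchyme share, was at 5.73, 4.92 and 5.61 TPM at E9.25 and 32.6, 32.6, 37.9 and 52.8 TPM at E10.5.

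Most genes marking the anterior bud rose. Of 11 tested members of 12, 9 rose and 1 fell, 8 and 1 held, and the median log2 fold change was 1.6, against 0.34 over all tested genes. Of the 9 not under 1 TPM in every E9.25 library 7 rose and 1 fell. *Alx4*, a homeobox gene that restricts SHH to the posterior side, was at 14.6, 11.2 and 13.5 TPM at E9.25 and 52.9, 31.9, 51.0 and 51.0 TPM at E10.5 (log2 fold change 1.74, standard error 0.19, adjusted p = 0.000343). *Meox2*, a homeobox gene, was at 1.59, 3.82 and 3.61 TPM at E9.25 and 22.6, 30.4, 31.4 and 38.5 TPM at E10.5 (log2 fold change 3.01, standard error 0.25, adjusted p = 0.000106). *Irx3*, an Iroquois gene needed early for the anterior limb skeleton, was at 38.1, 27.7 and 27.2 TPM at E9.25 and 65.7, 48.2, 67.4 and 53.5 TPM at E10.5 (log2 fold change 0.90, standard error 0.16, adjusted p = 0.00306). Its neighbor *Irx5* rose (0.88) but did not hold. *Alx1* fell, at 34.6, 27 and 26.1 TPM at E9.25 and 7.58, 6.85, 5.81 and 5.71 TPM at E10.5 (log2 fold change -2.01, standard error 0.15, adjusted p = 7.16e-05). *Pax9* was under the filter, at 0, 0 and 0.0993 TPM at E9.25 and 0.477, 0.0796, 0.407 and 0.410 TPM at E10.5. E10.5 replicate 2 was the lowest E10.5 library for *Alx4*, *Pax1* and *Irx3*.

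Posterior genes showed a mixed picture in anterior tissue. Of 11 tested of 14, 5 rose and 1 fell (4 and 1 held), beside 38.1% and 10.6% of all tested genes, with a median of 0.83. *Hand2*, the bHLH gene that opposes *Gli3* across the bud and activates *Shh*, was at 53.4, 31.8 and 30.1 TPM at E9.25 and 22.1, 31.4, 22.8 and 21.0 TPM at E10.5 (log2 fold change -0.61, standard error 0.22, adjusted p = 0.0451). Its lowest E9.25 library, at 30.1 TPM, lay below the highest E10.5 one, and without E9.25 replicate 1 the log2 fold change was -0.35 and no longer passed (adjusted p = 0.114), as was also the case without E10.5 replicate 1, 3 or 4. *Grem1*, the BMP antagonist that relays SHH to the ridge, was at 2.07, 1.98 and 2.57 TPM at E9.25 and 14.8, 25.8, 15.1 and 16.8 TPM at E10.5 (log2 fold change 2.54, standard error 0.21, adjusted p = 8.85e-05). The summed level of the posterior list was 114 to 155 TPM at E9.25 and 217 to 285 TPM at E10.5, the highest being replicate 2. Without E10.5 replicate 2 the log2 fold changes were 2.37 for *Grem1*, 3.67 for *Hoxd11* and 1.98 for *Gli1*, and all passed.

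Most tested components of the HH pathway rose with TPM as deposited, but only 5 held. Of 18 members 14 were tested and 11 rose (78.6%), beside 38.1% of all tested genes. Held increases made up 14.3% of all tested genes. There were 8 increases with size factors, 6 with the span trend removed and 9 without E9.25 replicate 2. The median log2 fold change was 0.83, with 0.58 under size factors and 0.54 without E9.25 replicate 2. The 3 co-receptors that help SHH bind were among the held increases: *Boc* was at 5.64, 4.10 and 4.13 TPM at E9.25 and 21.2, 17.5, 26.1 and 26.1 TPM at E10.5 (log2 fold change 2.07, standard error 0.18, adjusted p = 0.000124), *Cdon* at 17.8, 7.38 and 13.5 TPM at E9.25 and 50.3, 42.3, 54.9 and 59.8 TPM at E10.5 (log2 fold change 1.99, standard error 0.25, adjusted p = 0.00064), and *Gas1* had a log2 fold change of 1.08. *Gli1*, a direct readout of the pathway, was at 0.474, 0.237 and 0.407 TPM at E9.25 and 4.80, 9.87, 5.15 and 3.41 TPM at E10.5 (log2 fold change 2.23, standard error 0.28, adjusted p = 0.00064). E10.5 replicate 2 had the most *Gli1*, and the lowest E10.5 library still lay well above the highest E9.25 one. *Ptch1*, the receptor gene that the pathway itself induces, was at 8.08, 2.48 and 5.82 TPM at E9.25 and 9.54, 11.7, 11.3 and 9.70 TPM at E10.5 (log2 fold change 0.94, standard error 0.29, adjusted p = 0.0275). Its increase did not hold, was 0.55 without E9.25 replicate 2 and lost its call when any 1 E10.5 library was left out. *Gli3*, source of the main repressor, was at 44.2, 15.8 and 44.6 TPM at E9.25 and 84.3, 73.4, 89.7 and 79.1 TPM at E10.5 (log2 fold change 1.34, standard error 0.32, adjusted p = 0.00981), with 0.86 without E9.25 replicate 2 (adjusted p = 0.000394). The genes *Smo*, *Gli2*, *Sufu*, *Disp1* and *Gpr161* rose, by log2 fold changes of 0.34 to 0.93, and did not hold.

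The study named a set of predicted HH target genes and examined it in these same libraries, so the direction of the set here is not independent evidence. Of 74, 70 were tested, 26 rose and 13 fell, 18 and 13 held, with a median of 0.38 beside 0.34 for all genes. *Pmaip1*, which encodes the cell death protein NOXA, was at 1.15, 1.13 and 1.45 TPM at E9.25 and 21.1, 25.6, 25.3 and 34.7 TPM at E10.5 (log2 fold change 3.61, standard error 0.18, adjusted p = 2.03e-05). *Prdm1*, a zinc finger repressor, was at 15.4, 6.91 and 10.05 TPM at E9.25 and 1.53, 1.78, 1.43 and 1.47 TPM at E10.5 (log2 fold change -2.14, standard error 0.24, adjusted p = 0.00037). *Osr1* was at 1.72, 1.35 and 1.16 TPM at E9.25 and 7.28, 6.12, 6.89 and 4.03 TPM at E10.5 (log2 fold change 1.54, standard error 0.21, adjusted p = 0.000836).

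Genes that start the limb had calls in both directions. Of 10 tested of 12, 3 rose (30%) and 4 fell (40%), beside 38.1% and 10.6% of all tested genes, and all held. *Tbx5* (log2 fold change 0.88, standard error 0.21, adjusted p = 0.00983) and *Prrx1* (log2 fold change 1.4, standard error 0.18, adjusted p = 0.000761) rose together with *Tbx4*, the hindlimb counterpart of *Tbx5*, at 0.229, 0.274 and 0.244 TPM at E9.25 and 3.84, 2.70, 5.11 and 6.99 TPM at E10.5. *Fgf10*, the outgrowth signal, was at 28.1, 21.1 and 22.5 TPM at E9.25 and 12.7, 13.1, 12.6 and 10.2 TPM at E10.5 (log2 fold change -0.92, standard error 0.14, adjusted p = 0.00174). *Sall4*, a zinc finger gene downstream of *Tbx5*, was at 41.5, 26.0 and 32.1 TPM at E9.25 and 20.1, 19.2, 19.7 and 13 TPM at E10.5 (log2 fold change -0.84, standard error 0.20, adjusted p = 0.00934). The Wnt effectors *Tcf7* (-1.02) and *Lef1* (-0.83) also fell.

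Genes that make, degrade and respond to retinoic acid had calls in both directions. *Aldh1a2*, the enzyme that makes retinoic acid in the trunk mesoderm, was at 18.5, 19.0 and 8.81 TPM at E9.25 and 0, 0, 0.141 and 0.492 TPM at E10.5 (log2 fold change -3.78, standard error 0.28, adjusted p = 6.02e-05), and *Rdh10*, which catalyzes the step before it, was at 33, 19.3 and 22.2 TPM at E9.25 and 11.1, 8.98, 9.53 and 10.2 TPM at E10.5 (log2 fold change -1.21, standard error 0.18, adjusted p = 0.00148). *Cyp26b1*, the limb enzyme that degrades retinoic acid, was at 19.0, 10.05 and 25.3 TPM at E9.25 and 70.6, 79.1, 97.6 and 86.1 TPM at E10.5 (log2 fold change 2.22, standard error 0.26, adjusted p = 0.000469). *Aldh1a2* stayed under 1 TPM in every E10.5 library, so the filter fixed its direction, whereas *Cyp26b1* was higher in each of them than in any E9.25 library. The receptor gene *Rarb*, itself a target of retinoic acid, fell (log2 fold change -0.86, standard error 0.14, adjusted p = 0.00212), and *Rarg* rose (log2 fold change 1.63, standard error 0.13, adjusted p = 7.25e-05). The proximal homeobox genes *Meis1* (41.7, 23.5 and 31.1 TPM at E9.25 and 44.2, 39.9, 43.7 and 46.9 TPM at E10.5) and *Meis2* (104, 63.0 and 78.3 TPM at E9.25 and 85.5, 74.8, 82.6 and 88.6 TPM at E10.5) did not pass (adjusted p = 0.0514 and 0.827). Over the list, 5 rose and 3 fell of 15 tested, beside 38.1% and 10.6% of all tested genes. All of these calls held, and the median was 0.47. *Aldh1a2* belongs to trunk mesoderm as well as the proximal bud. The part of flank tissue in its fall was not tested.

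Other signals were mixed, with calls to be read beside the 38.1% higher and 10.6% lower of all tested genes. In the FGF list 5 of 16 tested genes rose and 1 fell (3 and 1 held), with a median of 0.30. *Fgf8*, the ridge signal, was at 40.3, 57.8 and 71.1 TPM at E9.25 and 59.0, 50.4, 69.0 and 57.8 TPM at E10.5, with overlapping groups (log2 fold change 0.09, adjusted p = 0.691). The receptor gene *Fgfr1* (log2 fold change 1.15, standard error 0.14, adjusted p = 0.00058) and *Il17rd*, an FGF feedback inhibitor (log2 fold change 1.28, standard error 0.20, adjusted p = 0.00161), rose. In the BMP list 5 of 17 rose and 2 fell, with a median of 0.17 that was -0.10 with size factors. *Bmp5*, a ligand (-1.26), and *Bambi*, a decoy receptor (-1.34), fell, and the receptor gene *Bmpr2* rose by 1.55, or 1.01 without E9.25 replicate 2. *Msx1*, a BMP response gene, was at 185, 199 and 158 TPM at E9.25 and 227, 168, 214 and 186 TPM at E10.5 (adjusted p = 0.397). In the Wnt list 9 of 22 rose and 4 fell, with a median of 0.34, equal to that of all genes. *Rspo3*, an enhancer of Wnt signaling, was at 0.842, 0.706 and 0.734 TPM at E9.25 and 9.08, 12.7, 9.83 and 7.63 TPM at E10.5 (log2 fold change 2.60, standard error 0.18, adjusted p = 5.45e-05). *Frzb*, a secreted Wnt inhibitor, was at 9.10, 10.9 and 6.53 TPM at E9.25 and 36.3, 38.7, 43.2 and 39.2 TPM at E10.5 (log2 fold change 2.06, standard error 0.16, adjusted p = 7.56e-05).

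Of the 6 genes that pattern the dorsal to ventral axis 4 rose and 1 fell (2 and 1 held). *Lhx9*, a LIM homeobox gene of distal mesenchyme, was at 50.8, 73.2 and 72.5 TPM at E9.25 and 215, 162, 201 and 198 TPM at E10.5 (log2 fold change 1.56, standard error 0.15, adjusted p = 0.000193). *Lmx1b*, which gives dorsal identity, was at 50.2, 32.7 and 57.6 TPM at E9.25 and 74.5, 65.1, 82.3 and 67 TPM at E10.5. Its log2 fold change of 0.64 became 0.41 without E9.25 replicate 2 and did not hold. *Wnt7a*, the dorsal ectoderm signal, was at 13.5, 9.96 and 16.2 TPM at E9.25 and 10.2, 8.85, 5.33 and 8.12 TPM at E10.5 (log2 fold change -0.65, standard error 0.23, adjusted p = 0.0435). Its groups overlapped. In the Notch list 11 of 16 rose and 1 fell (6 and 1 held), with a median of 0.75. The receptor gene *Notch1* was at 3.91, 1.75 and 3.39 TPM at E9.25 and 14.1, 10.8, 12.7 and 14.5 TPM at E10.5 (log2 fold change 1.84, standard error 0.22, adjusted p = 0.000487), and the feedback gene *Nrarp* at 3.02, 3.09 and 2.22 TPM at E9.25 and 11.5, 11.1, 10.02 and 11.9 TPM at E10.5 (log2 fold change 1.69, standard error 0.15, adjusted p = 0.000139). *Notch3* rose by 1.70, or 1.14 without E9.25 replicate 2.

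Genes of the skeletal and tendon lineages rose. Of 14 tested of 19, 13 rose and 10 held, and the median was 1.63 beside 0.34; of the 11 tested members not under 1 TPM in every E9.25 library, 10 rose. Their summed level was 56.9 to 102 TPM at E9.25 and 295 to 409 TPM at E10.5. *Sox9*, the master regulator of cartilage, was at 11.0, 5.63 and 9.41 TPM at E9.25 and 51.6, 47.0, 66.0 and 65.5 TPM at E10.5 (log2 fold change 2.63, standard error 0.22, adjusted p = 9.37e-05). *Col2a1*, the main cartilage collagen, was at 33.5, 10.8 and 41.4 TPM at E9.25 and 89.3, 78.9, 104 and 118 TPM at E10.5 (log2 fold change 1.91, standard error 0.39, adjusted p = 0.00495), and *Col9a1* at 8.30, 2.29 and 4.87 TPM at E9.25 and 35.3, 43.9, 48.9 and 58.7 TPM at E10.5 (log2 fold change 3.06, standard error 0.32, adjusted p = 0.000292). *Scx*, the tendon progenitor factor, was at 2.31, 1.96 and 2.39 TPM at E9.25 and 30.6, 39.5, 43.3 and 50.5 TPM at E10.5 (log2 fold change 3.69, standard error 0.17, adjusted p = 2e-05). Every E10.5 library exceeded every E9.25 library in these 4 genes, and E9.25 replicate 2 was the lowest in each. Without it their log2 fold changes were 2.37, 1.35, 2.67 and 3.63, and all passed. *Gdf5*, a joint gene, was listed at 0 in all 3 E9.25 libraries and 1.33, 1.28, 1.29 and 2.02 TPM at E10.5. The later matrix genes *Acan* and *Matn1* were under the filter.

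Matrix genes went both ways. Of 25 tested of 26, 11 rose and 5 fell (9 and 5 held), with a median of 0.97, or 0.49 without E9.25 replicate 2, whose sum of 225 TPM was the lowest of all. Of the 21 that reached 1 TPM in a library of each stage 10 rose and 2 fell. *Col1a2*, a chain of type I collagen, was at 35.4, 9.89 and 22.9 TPM at E9.25 and 185, 142, 214 and 240.4 TPM at E10.5 (log2 fold change 3.19, standard error 0.36, adjusted p = 0.000415). *Postn*, which encodes periostin, was at 28.4, 3.40 and 25.3 TPM at E9.25 and 0.365, 0.638, 0.589 and 0.811 TPM at E10.5 (log2 fold change -3.24). *Tnc*, which encodes tenascin C, was at 13.9, 4.59 and 11.9 TPM at E9.25 and 0.126, 0.109, 0.136 and 0.176 TPM at E10.5 (log2 fold change -3.17). *Col14a1*, a fibril-associated collagen, was at 8.68, 4.31 and 8.84 TPM at E9.25 and 0.214, 0, 0.200 and 0.199 TPM at E10.5 (log2 fold change -2.79). These 3 genes were below 1 TPM in every E10.5 library and passed the filter through E9.25 alone, which fixed their direction. *Vcan*, which encodes versican, rose by 1.75, or 1.05 without E9.25 replicate 2.

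Axon guidance and cell contact genes, which also sort cells within the bud, rose: 19 of 25 tested rose and 2 fell, 17 and 2 held, and the median was 1.22. *Robo2*, a receptor for Slit proteins, was at 3.72, 1.65 and 2.51 TPM at E9.25 and 19.1, 24.3, 28.4 and 41.8 TPM at E10.5 (log2 fold change 3.00, standard error 0.28, adjusted p = 0.000161). *Epha4*, an ephrin receptor, was at 10.4, 4.25 and 13.5 TPM at E9.25 and 40.7, 44.5, 47.9 and 56.7 TPM at E10.5 (log2 fold change 2.33, standard error 0.31, adjusted p = 0.000765), and *Cdh11*, a mesenchymal cadherin, at 26.9, 21.9 and 39.3 TPM at E9.25 and 146, 140.0, 149.9 and 168 TPM at E10.5 (log2 fold change 2.36, standard error 0.18, adjusted p = 6.15e-05). The secreted repellents *Sema3a* (-1.35) and *Sema3c* (-1.23) fell.

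**Figure D3:**
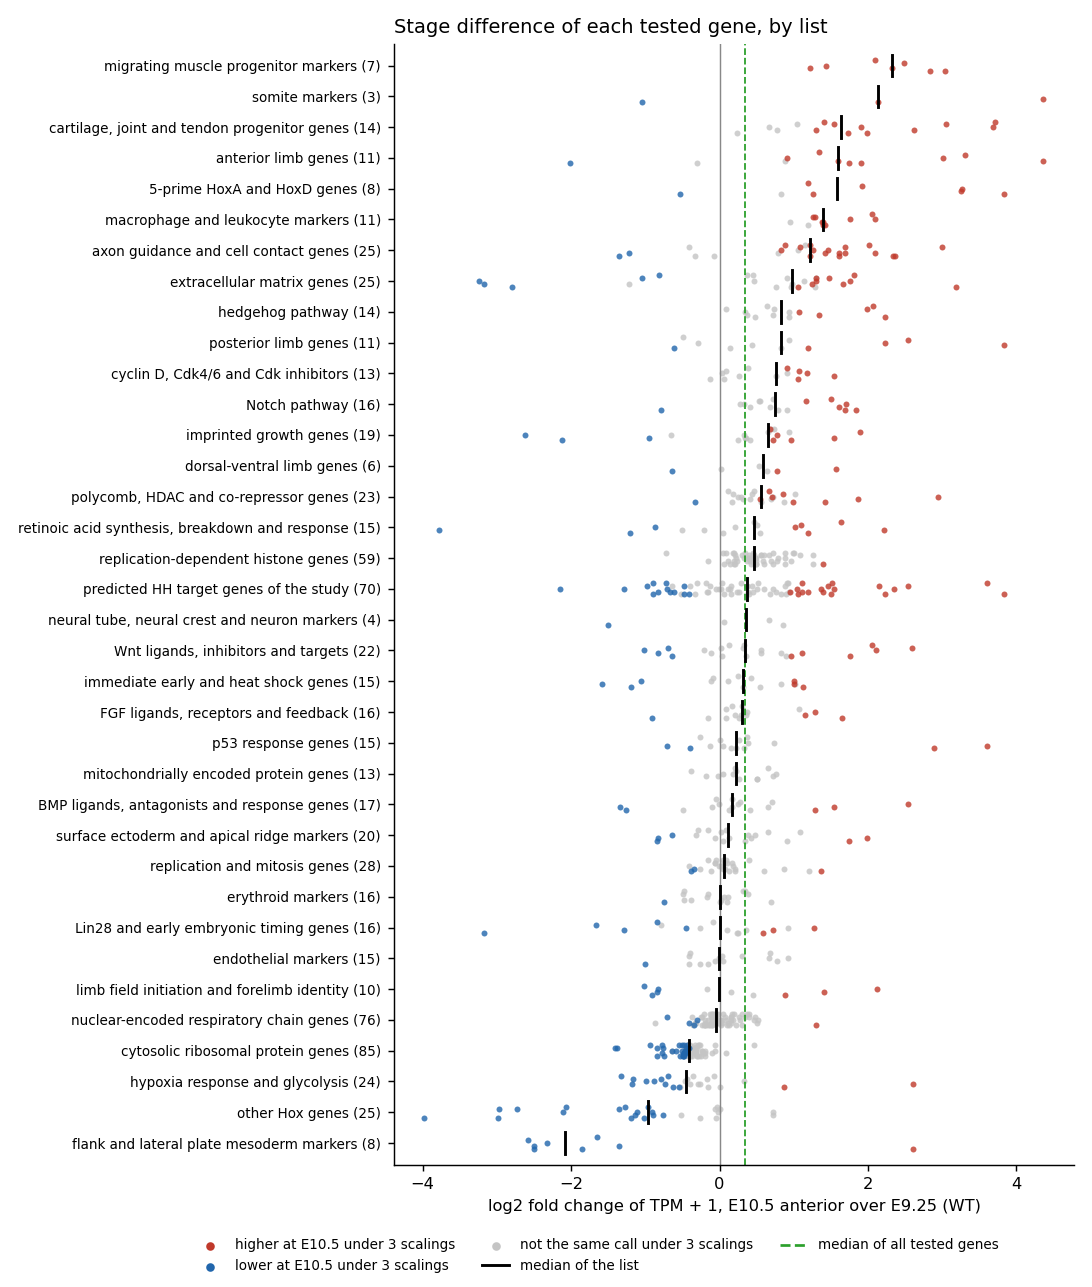
Log2 fold changes by gene list. Each point is a tested member, plotted as the log2 fold change of E10.5 anterior over E9.25 for each list, with the list's median as a black bar and the median of all tested genes, 0.34, as a dashed line, and red and blue marking members called higher or lower under all 3 scalings. The cartilage list sits to the right of that line and the glycolysis list, with a median of -0.45, to the left, while the macrophage and flank positions reflect the filter, which most of their tested members passed through 1 stage alone.

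Markers of migrating muscle progenitors were higher at E10.5. Of the 12 markers 11 had a higher mean at E10.5 and 1 the same mean, and 7 passed the filter, 1 of them through E10.5 alone. The summed level was 13.5 to 25.2 TPM at E9.25 and 90.5 to 106 TPM at E10.5. *Pax3*, which marks these cells from the somite on, was at 0.615, 0.968 and 1.23 TPM at E9.25 and 11.6, 13.3, 14.8 and 11.4 TPM at E10.5 (log2 fold change 2.83, standard error 0.17, adjusted p = 2.84e-05), and *Lbx1*, needed for their migration, at 1.6, 2.76 and 2.18 TPM at E9.25 and 14.9, 14.9, 17.9 and 11.8 TPM at E10.5 (log2 fold change 2.32, standard error 0.19, adjusted p = 8.72e-05). Both genes were low but present at E9.25. *Myf5*, the first of the muscle determination factors, was listed at 0 in all 3 E9.25 libraries and 3.36, 4.64, 4.43 and 6.24 TPM at E10.5. *Myod1* and *Myog*, which act later, were under the filter.

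Macrophage genes were low at E9.25. All 14 markers had a higher mean at E10.5. Of the 11 that passed the filter, 10 were under 1 TPM in every E9.25 library and passed through E10.5 alone, so their direction was fixed by the filter and their calls are not counted. The sum over the 14 was 2.45 to 4.16 TPM at E9.25 and 25.1 to 37.4 TPM at E10.5. *Tyrobp*, a signaling adaptor of myeloid cells, was at 0, 0.294 and 0 TPM at E9.25 and 4.09, 2.75, 3.59 and 4.31 TPM at E10.5. *C1qb*, a complement subunit made by macrophages, was at 0, 0.458 and 0 TPM at E9.25 and 3.09, 2.71, 3.64 and 5.88 TPM at E10.5. *Lyz2*, a lysozyme, was listed at 0 in all 3 E9.25 libraries and 1.4, 2.87, 2.36 and 3.27 TPM at E10.5.

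Blood, vessel and ectoderm genes overlapped between the stages. The 16 erythroid markers summed to 11695 to 21306 TPM at E9.25 and 12596 to 17618 TPM at E10.5. *Hba-x*, an embryonic globin gene, was at 2678, 1530.0 and 1858 TPM at E9.25 and 2535, 1689, 2738 and 1672 TPM at E10.5. The 15 endothelial markers summed to 147 to 252 TPM and 187 to 226 TPM. The vessel adhesion gene *Cdh5* rose (log2 fold change 0.77, standard error 0.24, adjusted p = 0.0273) but did not hold, and without E9.25 replicate 3 it was 0.49 and did not pass, while the ETS factor *Erg* fell (log2 fold change -1.0, standard error 0.14, adjusted p = 0.00105). Of 20 markers of surface ectoderm and ridge, 4 rose and 3 fell, with sums of 306 to 473 TPM and 346 to 475 TPM and a median of 0.11 that was -0.16 with size factors. *Epcam*, an epithelial adhesion gene, was at 26.2, 23.6 and 43.4 TPM at E9.25 and 42.0, 40.5, 34.9 and 44.7 TPM at E10.5 and did not pass, whereas *Krt5*, a basal keratin, was at 8.29, 10.2 and 21.6 TPM at E9.25 and 40.9, 48.4, 31.4 and 57.1 TPM at E10.5 (log2 fold change 1.74, standard error 0.31, adjusted p = 0.00289), and *Grhl3*, a regulator of epidermal differentiation, at 1.35, 0.857 and 2.61 TPM at E9.25 and 9.13, 9.74, 6.53 and 11.0 TPM at E10.5 (log2 fold change 1.99, standard error 0.26, adjusted p = 0.000678).

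Neural markers were low at both stages. Of 15 neural markers 4 passed the filter, and the sum was 25.7 to 31.5 TPM at E9.25 and 16.8 to 21.2 TPM at E10.5. *Sox2*, *Sox10*, *Olig2* and *Pax6*, which define neural tube and crest, were under the filter. *Ngfr*, a nerve growth factor receptor that mesenchyme also makes, fell (log2 fold change -1.5, standard error 0.21, adjusted p = 0.00112). Of 10 somite markers 3 were tested: *Tcf15* rose, at 1.90, 4.43 and 2.51 TPM at E9.25 and 17.7, 11.5, 19.4 and 15.3 TPM at E10.5 (log2 fold change 2.13, standard error 0.25, adjusted p = 0.000455), as did *Pax1*, and *Meox1* fell, at 18.2, 14.6 and 13.2 TPM at E9.25 and 7.93, 7.6, 5.94 and 6.24 TPM at E10.5 (log2 fold change -1.04, standard error 0.16, adjusted p = 0.00169). The somite genes *Tbx6*, *Uncx* and *Mesp2* were under the filter.

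**Figure D4:**
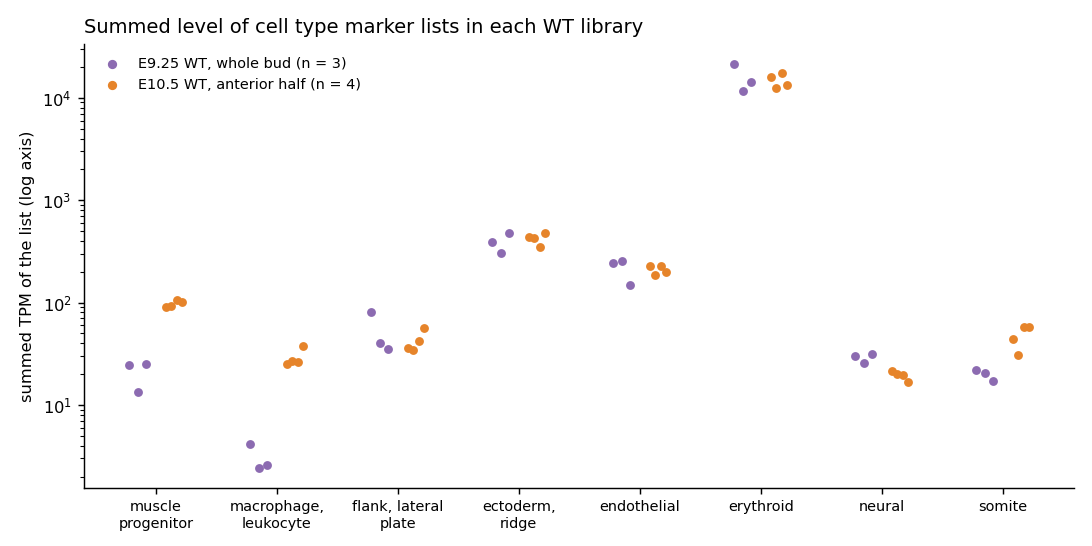
Summed TPM of cell type markers by library. Each point is the sum over a marker list in a library, on a log axis, for the 3 E9.25 and the 4 E10.5 anterior libraries. The muscle progenitor, macrophage and somite sums lie higher and the neural sum lower at E10.5 with no overlap, while the flank (with *Tbx18* included), ectoderm, erythroid and endothelial sums overlap.

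Most glycolytic enzymes of the list fell. Glycolysis breaks glucose down to pyruvate, which lactate dehydrogenase turns into lactate, and many of its genes respond to the hypoxia factor HIF1. Of the 24 genes of the hypoxia and glycolysis list 12 fell and 2 rose (10 and 2 held), with a median log2 fold change of -0.45; without E9.25 replicate 2, 13 fell and 2 rose. The 8 enzymes *Aldoa*, *Tpi1*, *Gapdh*, *Pgk1*, *Pgam1*, *Eno1*, *Pkm* and *Ldha* together made up 10951 to 12041 TPM at E9.25 and 6411 to 7289 TPM at E10.5.

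*Ldha*, the lactate dehydrogenase subunit that favors lactate production, was at 3015, 3187 and 2904 TPM at E9.25 and 1459, 1316, 1273 and 1305 TPM at E10.5 (log2 fold change -1.18, standard error 0.08, adjusted p = 5.59e-05). *Ldhb*, the subunit that favors the return to pyruvate, went the opposite way, at 31.4, 64.1 and 53.7 TPM at E9.25 and 275, 293, 309 and 304 TPM at E10.5 (log2 fold change 2.60, standard error 0.21, adjusted p = 7.74e-05). The 2 subunit genes thus moved in opposite directions with no overlap between the stages. *Pgk1*, phosphoglycerate kinase, was at 1373, 1266 and 1282 TPM at E9.25 and 597, 584, 539 and 614 TPM at E10.5 (log2 fold change -1.16, standard error 0.08, adjusted p = 4.79e-05). *Higd1a*, a hypoxia-induced mitochondrial protein, fell (log2 fold change -1.33, standard error 0.09, adjusted p = 5.45e-05), and *Hk1*, the hexokinase at the start of the pathway, rose (log2 fold change 0.87, standard error 0.18, adjusted p = 0.00571). Chosen after their values were seen, *Bnip3*, a HIF1 target that triggers mitophagy (-0.79), and *Pdk1*, which keeps pyruvate out of mitochondria (-0.99), also fell, while *Vegfa*, the classical HIF1 target, had a log2 fold change of 0.01 and *Slc2a1*, the glucose transporter, of -0.40, and neither passed.

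Promoters of *Ldha*, *Ldhb*, *Pgk1* and *Bnip3* are shown as examples chosen after the values were seen, and they do not stand for the list. *Ldhb* rose and the others fell, and *Hk1*, which also rose, is not shown. Each runs from 250 bases before to 50 bases after the RefSeq start (GRCm38.p6), 5′ to 3′ on the gene's strand. ACGTG, the core of the hypoxia response element, is in capitals in either orientation (CACGT on the opposite strand), so that CACGTG holds 2 overlapping matches. *Ldha* (chr7:46845554-46845853, plus strand) had 5 matches, *Ldhb* (chr6:142507908-142508207, minus strand) had 0, *Pgk1* (chrX:106186850-106187149, plus strand) had 2 and *Bnip3* (chr7:138909457-138909756, minus strand) had 2.
Ldha: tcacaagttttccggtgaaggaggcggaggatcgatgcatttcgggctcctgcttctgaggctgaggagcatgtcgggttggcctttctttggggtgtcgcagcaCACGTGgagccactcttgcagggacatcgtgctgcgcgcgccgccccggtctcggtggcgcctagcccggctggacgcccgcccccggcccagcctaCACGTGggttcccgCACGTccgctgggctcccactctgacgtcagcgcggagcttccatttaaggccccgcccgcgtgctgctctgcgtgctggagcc
Ldhb: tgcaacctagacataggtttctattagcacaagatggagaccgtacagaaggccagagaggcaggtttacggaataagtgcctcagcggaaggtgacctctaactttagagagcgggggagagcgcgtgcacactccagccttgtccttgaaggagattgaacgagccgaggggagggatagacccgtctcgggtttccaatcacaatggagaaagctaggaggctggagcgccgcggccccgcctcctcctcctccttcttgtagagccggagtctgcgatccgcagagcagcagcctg
Pgk1: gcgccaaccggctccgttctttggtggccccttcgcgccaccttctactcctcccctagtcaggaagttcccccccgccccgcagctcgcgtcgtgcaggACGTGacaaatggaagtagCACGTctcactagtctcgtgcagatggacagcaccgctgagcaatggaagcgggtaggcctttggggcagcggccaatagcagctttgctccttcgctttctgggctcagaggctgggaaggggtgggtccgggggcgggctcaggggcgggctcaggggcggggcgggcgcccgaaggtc
Bnip3: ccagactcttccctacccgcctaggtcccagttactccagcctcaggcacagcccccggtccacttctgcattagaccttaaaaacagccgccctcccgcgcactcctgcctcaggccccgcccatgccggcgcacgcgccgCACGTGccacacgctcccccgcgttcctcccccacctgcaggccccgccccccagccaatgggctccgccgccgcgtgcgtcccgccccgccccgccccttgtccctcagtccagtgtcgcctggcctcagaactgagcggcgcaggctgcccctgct
At least 1 match stood in 26.1% of the 9542 promoters of tested genes at hand, in 11 of 23 of the list (47.8%) and in 5 of the 12 members that fell (41.7%). The share was thus not higher among the members that fell than over the list. Among held genes the share was 22.4% of those that rose and 29.7% of those that fell. A match of 5 letters is a description of the sequence and not a binding site.

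**Figure D5:**
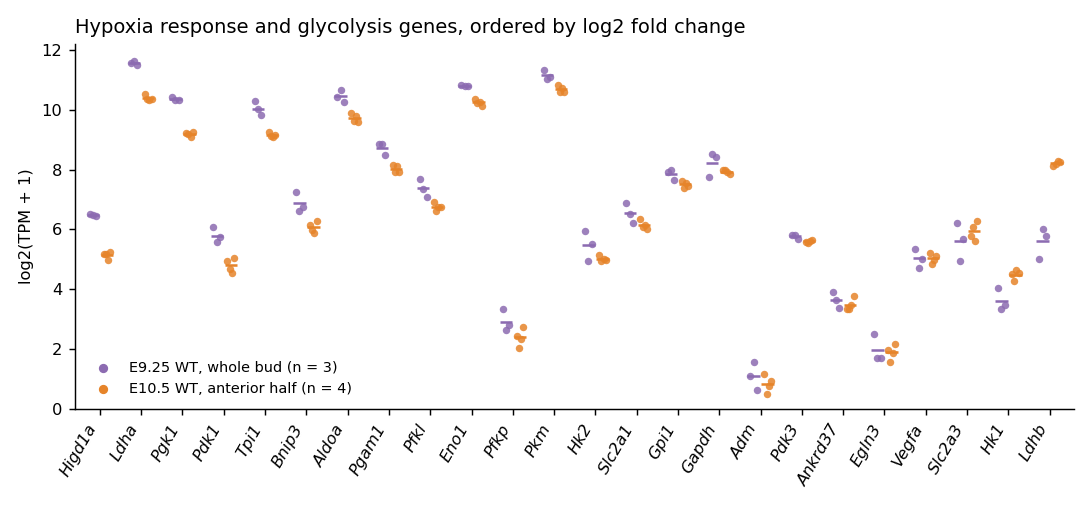
Levels of hypoxia and glycolysis genes by library. Each point is a library's log2(TPM + 1) for a gene of the list and each bar a group mean, with the 2 stages in different colors and genes ordered by fold change. *Ldha* has 2904 to 3187 TPM at E9.25 and 1273 to 1459 TPM at E10.5, *Ldhb* 31.4 to 64.1 TPM and 275 to 309 TPM, and most genes between them sit lower at E10.5.

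Cytosolic ribosomal protein genes, among the most abundant in these libraries, fell in near unison by a small amount. Of 85 tested of 89, 68 fell, with a median of -0.41, and 30 held. Their sum was 163210.0 to 181036 TPM at E9.25 and 120829 to 137914 TPM at E10.5. Without E9.25 replicate 2, 51 fell. *Rpl35a* was at 1519.8, 1656 and 1140.3 TPM at E9.25 and 533, 463, 568 and 584 TPM at E10.5 (log2 fold change -1.41, standard error 0.14, adjusted p = 0.000222), the largest decrease of the list. Ribosomal protein genes have many near-identical pseudogene copies, and how reads were shared among them is not given. Nuclear genes of the respiratory chain stayed near 0: 7 rose and 8 fell of 76, with a median of -0.04. With size factors 1 rose and 30 fell, and without E9.25 replicate 2 10 rose and 3 fell, with a median of 0.02. Of the 13 protein genes of the mitochondrial genome 5 rose and 1 fell, no call held, and the median of 0.22 was -0.05 with size factors. Of 59 tested replication-dependent histone genes 8 rose and 1 held, and their sum varied from 264 to 733 TPM within E10.5 alone.

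Genes that mark early embryonic time fell in part. *Lin28a*, the RNA-binding protein that blocks let-7 maturation, was at 186, 165 and 141 TPM at E9.25 and 25.5, 20.9, 16.6 and 9.55 TPM at E10.5 (log2 fold change -3.18, standard error 0.28, adjusted p = 0.000126), and its relative *Lin28b* at 105, 63.9 and 100.2 TPM at E9.25 and 40.4, 38.3, 31.2 and 31.8 TPM at E10.5 (log2 fold change -1.29, standard error 0.18, adjusted p = 0.00102). *Myc*, the growth regulator, was at 58.4, 43.6 and 37.6 TPM at E9.25 and 14.8, 12.6, 16.3 and 11.8 TPM at E10.5 (log2 fold change -1.66, standard error 0.17, adjusted p = 0.000277). All 3 fell with no overlap. Other members of the same axis did not follow: *Hmga2*, a let-7 target, was at 344, 216 and 280.1 TPM at E9.25 and 451, 405, 491 and 478 TPM at E10.5 and rose (log2 fold change 0.72, standard error 0.15, adjusted p = 0.00555), *Igf2bp3*, another, rose (0.59), and *Igf2bp1* was at 184, 77.9 and 151 TPM at E9.25 and 155, 142, 164 and 153 TPM at E10.5 and did not pass. Over the list 4 rose and 5 fell of 16 tested, with a median of 0.01, and with size factors 3 rose and 7 fell, with a median of -0.26.

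Imprinted growth genes, expressed from 1 parental copy, moved in both directions: 7 of 19 rose and 3 fell, beside 38.1% and 10.6% of all tested genes, with a median of 0.65 beside 0.34. Without E9.25 replicate 2 the median was 0.31, beside 0.25 over all tested genes, and with size factors it was 0.39, beside 0.10. *Igf2*, the fetal growth factor, was at 932, 629 and 829 TPM at E9.25 and 1544, 1317, 1679 and 1642 TPM at E10.5 (log2 fold change 0.97, standard error 0.14, adjusted p = 0.00135). *H19*, which shares its enhancers, was among the most abundant RNAs, at 3195, 2969 and 3351 TPM at E9.25 and 4474, 3797, 4436 and 4146 TPM at E10.5, and its log2 fold change of 0.41 did not hold. *Cdkn1c*, which encodes the cell cycle inhibitor p57, was at 131, 94.4 and 103 TPM at E9.25 and 274, 272, 363 and 379 TPM at E10.5 (log2 fold change 1.54, standard error 0.16, adjusted p = 0.000266). *Dlk1*, a Notch-related growth regulator, was at 219, 193 and 104 TPM at E9.25 and 49.3, 29.2, 46.0 and 27.3 TPM at E10.5 (log2 fold change -2.13, standard error 0.29, adjusted p = 0.000921), and *Phlda2*, a growth restrictor of the placenta, at 12.6, 7.28 and 7.28 TPM at E9.25 and 1.05, 0, 0.998 and 0.543 TPM at E10.5 (log2 fold change -2.62, standard error 0.29, adjusted p = 0.000399).

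Replication and mitosis genes stayed close to their earlier levels, with 4 increases and 3 decreases among 28 and a median of 0.05, under the 0.34 of all genes; with size factors 1 rose and 8 fell, with a median of -0.22. *Mki67*, a proliferation marker, was at 56.3, 9.85 and 41.3 TPM at E9.25 and 62.6, 76.1, 57.4 and 75.5 TPM at E10.5, low in E9.25 replicate 2 alone, and did not pass (adjusted p = 0.0648). *Top2a*, topoisomerase II, rose by 0.87, or 0.50 without that library. *Ccnd1*, cyclin D1, was at 112, 90.8 and 97.1 TPM at E9.25 and 99.4, 100.5, 109 and 107 TPM at E10.5 and did not pass (adjusted p = 0.631). In the list of D cyclins, their kinases and the inhibitors 7 of 13 rose, with a median of 0.76, or 0.46 without E9.25 replicate 2. Beside *Cdkn1c* the increases included *Cdkn2c*, which encodes p18 (log2 fold change 1.18, standard error 0.17, adjusted p = 0.00111), and the retinoblastoma gene *Rb1* (log2 fold change 1.07, standard error 0.22, adjusted p = 0.00555).

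Because the study asks when repression starts, genes of polycomb complexes, histone deacetylases and co-repressors were listed. Of 23 15 rose and 1 fell, 8 and 1 held, with a median of 0.56. Increases numbered 12 without E9.25 replicate 2 and 5 with the span trend removed. The Groucho family co-repressors *Tle1*, at 11.7, 10.8 and 13 TPM at E9.25 and 32.7, 28.6, 37.9 and 34.3 TPM at E10.5 (log2 fold change 1.42, standard error 0.13, adjusted p = 0.000146), and *Tle2*, at 1.62, 0.894 and 2.72 TPM at E9.25 and 9.05, 8.0, 7.39 and 10.3 TPM at E10.5 (log2 fold change 1.87, standard error 0.24, adjusted p = 0.000634), rose. *Aes*, a short member of the same family, was at 20.6, 26.0 and 28.6 TPM at E9.25 and 196, 174, 218 and 203 TPM at E10.5 (log2 fold change 2.94, standard error 0.13, adjusted p = 1.97e-05). *Eed*, a core subunit of polycomb complex PRC2, was at 86.8, 83.2 and 74.7 TPM at E9.25 and 61.8, 68.1, 60.2 and 67.4 TPM at E10.5 (log2 fold change -0.34, standard error 0.09, adjusted p = 0.0185) and lost its call without E10.5 replicate 1 or 3. The PRC2 enzymes *Ezh2* (0.54, adjusted p = 0.00414) and *Ezh1* (0.98, adjusted p = 0.00271) rose and held, and the subunit *Suz12* (0.56, adjusted p = 0.0677) did not pass. The deacetylase genes *Hdac1* (0.25) and *Hdac3* (0.46) rose and did not hold, and *Hdac2* (0.18) did not pass. The study, using DESeq2, reports the co-repressor gene *Ski* as lower before HH induction than at E10.5. Here *Ski* had a log2 fold change of 0.31 and did not pass (limma, adjusted p = 0.179).

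Stress and early response genes had calls in both directions, to be read beside the 38.1% higher and 10.6% lower of all tested genes. Of 15 p53 response genes 5 rose and 2 fell (2 and 2 held), with a median of 0.22 that was -0.05 with size factors. *Trp53inp1* rose (log2 fold change 2.89, standard error 0.36, adjusted p = 0.000563) with *Pmaip1*, while *Aen*, an apoptotic nuclease, fell (-0.71), and *Cdkn1a*, the classical target, had a log2 fold change of -0.13 and did not pass. Of 15 immediate early and heat shock genes, which can respond to dissection, 6 rose and 3 fell (3 and 3 held). *Egr1* was at 5.60, 4.71 and 4.29 TPM at E9.25 and 1.2, 0.682, 0.932 and 1.03 TPM at E10.5 (log2 fold change -1.58, standard error 0.17, adjusted p = 0.000288) and *Junb* at 14.0, 14.1 and 9.27 TPM at E9.25 and 4.58, 4.68, 5.09 and 4.87 TPM at E10.5 (log2 fold change -1.19, standard error 0.17, adjusted p = 0.00113), and *Jund* rose, at 43.3, 37.4 and 33.7 TPM at E9.25 and 85.7, 71.7, 96.7 and 83.4 TPM at E10.5 (log2 fold change 1.12, standard error 0.13, adjusted p = 0.000415).

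The same stage and region comparison was available in *Gli3*-/- buds, which lack the GLI3 repressor and by the study's methods carry the *Xt-J* allele: 4 whole-bud libraries at E9.25 against 3 anterior libraries at E10.5, none shared with WT. There 2437 genes were higher and 1416 lower of 15434 tested, 25% in all, 15.8% and 9.17% by direction. Of the 2211 held WT increases 2144 were tested in *Gli3*-/- and 2081 (97.1%) had the same sign, beside 72.6% of all tested genes with a WT log2 fold change above 0, and 1272 (57.5% of 2211) also passed, beside 20.9%. Of the 1470 held decreases 1458 were tested and 1401 (96.1%) had the same sign, beside 84.8% of all tested genes below 0, and 693 (47.1%) passed, beside 26.3%. The median log2 fold changes of these genes were 1.15 and -0.57 in WT, where they were selected by their call, and 0.59 and -0.39 in *Gli3*-/-, where they were not, so the medians of the 2 genotypes are not compared. The *Gli3*-/- counts fell by similar amounts whichever E10.5 library was left out, so they did not rest on a particular one. There were 2615 calls without replicate 1, 2513 without replicate 2 and 2679 without replicate 3, beside 3853 with all. Each of these fits left 2 libraries in the E10.5 group. A test of the stage by genotype interaction passed for 125 of the increases and 62 of the decreases, beside 229 of the 11266 genes above 0 and 87 of the 4178 below.

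Some genes of the anterior bud differed between the genotypes. The log2 fold change of *Alx4* was 1.74 in WT and -1.35 in *Gli3*-/- (interaction -3.09, standard error 0.47, adjusted p = 0.00327), and its mean *Gli3*-/- levels were 9.78 ± 2.84 TPM (SD, n = 4) at E9.25 and 3.67 ± 2.58 TPM (SD, n = 3) at E10.5. For *Irx3* it was 0.90 in WT and -2.48 in *Gli3*-/- (interaction -3.39, standard error 0.46, adjusted p = 0.00151). *Pax1* reached 0 to 0.172 TPM in the E10.5 *Gli3*-/- libraries, against 8.27 to 34.6 TPM in WT. Some Hox genes of the 5′ end had a larger rise in *Gli3*-/-: *Hoxd11* changed by 3.84 in WT and 6.93 in *Gli3*-/- (interaction 3.10, standard error 0.32, adjusted p = 0.000219) and *Hoxa11* by 3.26 in WT and 5.77 in *Gli3*-/- (interaction 2.51, standard error 0.40, adjusted p = 0.00433). *Lin28a* changed by -3.18 and -3.03, *Ldha* by -1.18 and -1.04, *Ldhb* by 2.60 and 2.68 and *Scx* by 3.69 and 4.01 in the 2 genotypes, and their interactions did not pass. In the glycolysis list 17 of 24 genes fell in *Gli3*-/-, and in the ribosomal protein list 8 of 85.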

How the data were processed

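RNA was measured by RNA-seq in forelimb buds, and 7 of 67 samples entered the main comparison: 3 E9.25 WT and 4 E10.5 anterior WT libraries, grouped by the labels alone. Per the paper's methods the authors aligned reads with HISAT2 (version not given in the sources used here) and used DESeq2. The labels give genome build mm10, and 99.8% of the 33122 gene IDs with a RefSeq symbol lay at the same place in GRCm38.p6. The tool behind the gene tables, the annotation and the handling of strand and shared reads are not given in the sources used here. The authors deposited, for each library, TPM per gene, scaled so that each library sums to the same total, with FPKM and mean coverage beside it. TPM is relative, so a change in a few abundant classes shifts all other genes. Read totals and reads per kilobase were estimated from the deposited coverage and FPKM with 100-base reads.

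A gene had to reach 1 TPM in 3 libraries or more, and was then tested on log2(TPM + 1) with limma (version 3.58.1, R 4.3.3, eBayes with trend) and Benjamini-Hochberg adjustment over all tested genes, with 0.05 as threshold. Fold changes on this scale understate those of low genes. The fit carries no covariate, and without raw counts no count model was run. Median-of-ratios size factors and quantile normalization of the TPM were the 2 other scalings behind the word "held". The interaction was fitted over all 14 libraries. The steps were tested on simulated data. Tables and figures used Python 3.11.15, pandas 2.3.3, NumPy 2.4.6 and matplotlib 3.10.9.

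The members and gene lists were chosen with earlier results of these data known. The genes named are, per direction, the 15 largest held changes with no overlap and a TPM of at least 5 in the higher group, leaving out unnamed, mitochondrial and histone genes; up to 3 called members per list and direction; a set of limb, signaling and cell type genes named whatever their call; and list members at 0 in 1 group and above 1 TPM in the other. Others named without full statistics, such as *Gas1*, *Hoxd1* or *Bnip3*, were chosen after their values were seen. Replicates are pools of embryos as the labels number them. Whether the libraries of a group were made together is not stated, so p-values measure the spread between these pools. Alternatives were a pseudocount of 0.1, other filters and scalings, FPKM, sample weights, a replicate block, removal of a span trend and leaving out each library. The series' binding and chromatin tracks were not used here, and 3 genes that met these rules are not reported here.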

Additional observations from a re-analysis of the deposited data

Results flagged for a closer look

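In 6 named genes 1 of the 4 E10.5 anterior WT libraries lay further from the nearest other than Dixon's 95% critical value for 4 samples allows. These were *Alx4* in replicate 2, at 31.9 TPM against 51.0 to 52.9 TPM in the others, and in replicate 4 *Fgf10* at 10.2 TPM, *Gdf5* at 2.02 TPM, *Mab21l1* at 36.7 TPM, *Robo4* at 3.61 TPM and *Sall4* at 12.98 TPM. Chance gives such a library in about 1 in 20 groups, and 194 genes were examined. Replicate 2 was also the highest E10.5 library for *Gli1*, *Grem1*, *Hand2*, *Hoxd11*, *Hoxd12* and *Hoxd13*.

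In 40 of the 193 named genes tested, the stage difference differed between *Gli3*-/- and WT by the interaction term (limma, adjusted p under 0.05 over all genes tested). The values are the log2 fold change of E10.5 over E9.25 in *Gli3*-/- minus that in WT, so a negative value is a smaller rise or a larger fall in the mutant. Among genes of the anterior bud and the homeobox or T-box genes near them it was -1.82 for *Alx1*, -3.09 for *Alx4*, -3.39 for *Irx3*, -2.75 for *Irx5*, -4.29 for *Pax1*, -1.98 for *Meis1*, -1.79 for *Meis2*, 2.32 for *Shox2*, 2.15 for *Tbx15*, 1.39 for *Osr2*, 1.26 for *Lhx2*, 1.07 for *Lbx1* and -1.48 for *Lhx1*. Among Hox genes it was -1.46 for *Hoxa3*, -2.27 for *Hoxb1*, 2.19 for *Hoxa10*, 2.51 for *Hoxa11*, 2.47 for *Hoxa11os*, 2.63 for *Hoxa13*, 2.83 for *Hoxd10*, 3.10 for *Hoxd11* and 4.74 for *Hoxd13*. Among signaling and retinoid genes it was -1.18 for *Bmpr1b*, -1.63 for *Cdon*, 2.67 for *Fgf8*, -1.77 for *Rarb*, -1.59 for *Wnt2* and -5.08 for *Nr1h5*. Among flank genes it was -2.99 for *Gata4*, -1.44 for *Gata5*, -2.81 for *Hand1* and -1.48 for *Lhx1*. Among the remaining genes it was -1.69 for *Col9a1*, -1.94 for *Gjb2*, 1.57 for *Hopx*, -1.10 for *Hspa1a*, -1.94 for *Krt19*, 1.30 for *Nnat*, -1.19 for *Rian*, 1.52 for *Rpl26* and 1.54 for *Tubb3*. The 2 comparisons share no library. E9.25 WT replicate 2 stands apart by gene span, and the part of that library in these differences was not tested.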

How the results depend on the processing

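Counts of genes called in WT were 5885 higher and 1635 lower with TPM as deposited. They were 3659 and 2893 with size factors, 2668 and 3050 with quantile normalization, 2282 and 3877 with library medians made equal, 3987 and 2299 with FPKM, and 2825 and 3296 with the span trend removed, so 3 of these 5 turned the balance. An adjusted p under 0.01 left 3743 (2943 and 800), and a log2 fold change of at least 1 left 2025 (1792 and 233), as stricter thresholds must. Leaving out 1 library gave 5263 to 8374 calls, 4076 to 6785 higher and 1182 to 1589 lower. In *Gli3*-/- it gave 2513 to 4376 calls, 1598 to 2879 higher and 915 to 1984 lower, beside 4619 (2502 and 2117) with size factors. With the replicate number as a block there were 4699 calls (3743 and 956) in WT and 3824 (2336 and 1488) in *Gli3*-/-. The numbers do not pair the samples: same-numbered libraries had correlations of deviations of 0.12, 0.06 and -0.29, and not every library correlated best with its own number.

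Of 178 called named genes 134 kept their call in each of 20 alternatives. The sign turned in 10 named genes, all with small changes. It did so with size factors for *Ccnd1* (-0.21), *Fgf8* (-0.17), *Hba-x* (-0.17), *Igf2bp1* (-0.025), *Meis2* (-0.22), *Msx1* (-0.14) and *Tubb3* (-0.19). With equal library medians it was *Ccnd1* (-0.36), *Epcam* (-0.0017), *Fgf8* (-0.33), *H19* (-0.012), *Hba-x* (-0.32), *Igf2bp1* (-0.18), *Meis2* (-0.38), *Msx1* (-0.29) and *Tubb3* (-0.36). With FPKM it was *Ccnd1* (-0.11), *Fgf8* (-0.077), *Hba-x* (-0.076), *Meis2* (-0.13), *Msx1* (-0.040) and *Tubb3* (-0.10), and with quantile normalization *Fgf8* (-0.043), *Meis2* (-0.028) and *Tubb3* (-0.41). With the span trend removed it was *Ccnd1* (-0.22), *Fgf8* (-0.16), *Hba-x* (-0.027), *Igf2bp1* (-0.19), *Meis1* (-0.11), *Meis2* (-0.57), *Msx1* (-0.10) and *Tubb3* (-0.22). Without the most abundant classes it was *Ccnd1* (-0.013), *Meis2* (-0.026) and *Tubb3* (-0.0054), and with sample weights *Fgf8* (-0.021) and *Tubb3* (-0.11). Leaving out 1 library gave ranges of -0.0089 to 0.14 for *Ccnd1*, -0.13 to 0.28 for *Fgf8*, -0.084 to 0.32 for *Hba-x*, -0.12 to 0.50 for *Igf2bp1*, -0.13 to 0.23 for *Meis2* and -0.22 to 0.29 for *Tubb3*. Apart from the construction of each alternative, the causes were not tested. At 20.7 to 29.2 reads per kilobase for 1 TPM, genes listed at 0 are below what these depths detect, and 32.9% of the listed genes could be tested.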

Other observations

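Classes of RNA differed in direction. Of 11527 tested genes that RefSeq lists as protein coding, 1910 (16.6%) were higher and 937 (8.13%) lower under all 3 scalings, with a median log2 fold change of 0.36. Of 1279 pseudogenes 18 (1.41%) were higher and 336 (26.3%) lower, with a median of -0.17. How reads shared with parent genes were counted is not given, and 30 of 85 tested ribosomal protein genes, which have many pseudogenes, were lower under the same rule. Of 77 small nuclear RNA genes 19 (24.7%) were higher, with a median of 1.07, and of 423 long noncoding RNA genes 61 (14.4%) were higher and 36 (8.51%) lower.

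The direction also followed level. The median log2 fold change was 0.54 in 4470 genes with a mean under 5 TPM, 0.46 in 4438 genes at 5 to 20 TPM, 0.24 in 4873 genes at 20 to 100 TPM and -0.12 in 1663 genes at 100 TPM or more. The last class made up a summed 743930 TPM at E9.25 and 695160 TPM at E10.5. Of the tested genes, 37 were listed at 0 in all 3 E9.25 libraries and 5 in all 4 E10.5 libraries. The filter admits the first kind with 3 of 4 E10.5 libraries at 1 TPM and the second only with 3 of 3 E9.25 libraries, so the 2 counts cannot be compared.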
